A study of Mus musculus with 8 samples.

Results

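The smooth muscle and contractile genes described here are 29 genes for actin and myosin filaments, the enzymes that switch myosin on and off, proteins that bind thin filaments, proteins that anchor filaments to the cell edge, and 2 transcriptional regulators. They were chosen by name, as contractile proteins and regulators of the follicle wall, and all 29 were found among the 41591 gene IDs of the count tables. Their messenger RNA was counted in 8 samples of whole ovary from female mice, 4 with a conditional deletion of both Insr and Igf1r (DKO) and 4 controls. Insr encodes the receptor for insulin and Igf1r that for the related growth factor IGF1. Controls were littermates labelled wild type and positive for Pgr-Cre, a Cre recombinase expressed from the progesterone receptor gene, which in the ovary is known for its induction in granulosa cells by the ovulatory signal. The labels name no Cre driver for the DKO mice themselves. All mice were of strain C57BL/6 and about 3 weeks old. Each had been superovulated with 4 IU of equine chorionic gonadotropin (eCG), which drives follicle growth, and 48 h later with 5 IU of human chorionic gonadotropin (hCG), which acts as the ovulatory surge does. Ovaries were taken 12 h after hCG. Both groups were hormone-treated, and there was no untreated ovary for comparison. A whole ovary holds many cell types, and which of them lost the receptors is not given by the labels.

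Smooth muscle contracts when calcium and calmodulin activate myosin light chain kinase, which phosphorylates the regulatory light chain of myosin so that it can pull on actin. Myosin phosphatase reverses this step. In the ovary, smooth muscle lies in the vessel walls and in the outer theca of large follicles, whose contraction is known to take part in follicle rupture. Serum response factor (encoded by Srf), with its partner myocardin (Myocd), drives many contractile genes by binding a motif called the CArG box. TEAD factors bind another motif of muscle promoters, the MCAT element.

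Promoters were read from RefSeq, assembly GRCm38.p6, to show where these motifs lie in members that the results return to. Start sites of 24 of the 29 members were used. The table held none for Myh11, Tagln, Actg2 and Myocd, and a further member was left out of these counts. The 250 bases before each start site were searched on both strands for the CArG box and for the MCAT letters CATTCC. The CArG box was taken in its strict form, with only A or T between CC and GG. Variants with a C or G in between were not counted, such as ccctatatgg in the window of Acta2. A CArG box was present for 5 of 24 members (20.8%), Ldb3, Myl6, Myl9, Srf and Vcl, and for 1.62% of 27025 genes in the table. The MCAT letters were present for 10 of 24 members (41.7%), Acta2, Cald1, Flna, Lmod1, Mylk, Pdlim3, Ppp1r12b, Smtn, Tpm1 and Vcl, and for 14.4% of all genes. In the sequences below, each 250 bases long and printed 5′ to 3′ toward the start site, capitals mark these matches, and no matches overlapped. Srf, Vcl and Myl9 are shown for the CArG box.
Srf, chr17:46556163-46556412, minus strand: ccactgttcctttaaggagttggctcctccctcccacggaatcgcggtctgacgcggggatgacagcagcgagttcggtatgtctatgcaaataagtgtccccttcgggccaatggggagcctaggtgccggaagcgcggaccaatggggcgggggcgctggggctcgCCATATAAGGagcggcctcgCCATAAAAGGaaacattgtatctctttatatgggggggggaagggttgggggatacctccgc
Vcl, chr14:20929148-20929397, plus strand: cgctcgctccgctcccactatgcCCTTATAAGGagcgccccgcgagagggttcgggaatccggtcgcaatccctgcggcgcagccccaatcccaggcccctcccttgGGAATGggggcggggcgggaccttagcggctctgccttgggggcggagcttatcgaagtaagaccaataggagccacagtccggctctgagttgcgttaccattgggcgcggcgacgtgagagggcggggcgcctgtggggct
Myl9, chr2:156775214-156775463, plus strand: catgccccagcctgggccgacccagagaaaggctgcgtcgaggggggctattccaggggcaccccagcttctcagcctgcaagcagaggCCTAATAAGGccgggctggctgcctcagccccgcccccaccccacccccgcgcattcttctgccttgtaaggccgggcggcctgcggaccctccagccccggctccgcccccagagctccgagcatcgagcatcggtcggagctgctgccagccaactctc
Srf held CCATATAAGG and CCATAAAAGG, at 82 to 73 and 62 to 53 bases before its start. Vcl held CCTTATAAGG and, nearer to the start, the MCAT letters. Acta2, Flna and Pdlim3 are shown for the MCAT letters, Acta2 as the best known smooth muscle gene and the other two for having the smallest adjusted p-values among the members.
Acta2, chr19:34255374-34255623, minus strand: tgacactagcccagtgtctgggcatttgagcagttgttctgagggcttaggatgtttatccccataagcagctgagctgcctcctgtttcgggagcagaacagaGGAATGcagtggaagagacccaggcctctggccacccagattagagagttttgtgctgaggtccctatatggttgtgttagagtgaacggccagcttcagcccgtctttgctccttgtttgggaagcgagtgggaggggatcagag
Flna, chrX:74246535-74246784, minus strand: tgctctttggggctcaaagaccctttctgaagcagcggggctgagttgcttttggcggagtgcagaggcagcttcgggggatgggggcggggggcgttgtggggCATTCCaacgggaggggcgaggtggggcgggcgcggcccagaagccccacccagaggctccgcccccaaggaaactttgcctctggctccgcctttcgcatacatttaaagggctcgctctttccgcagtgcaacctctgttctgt
Pdlim3, chr8:45885237-45885486, plus strand: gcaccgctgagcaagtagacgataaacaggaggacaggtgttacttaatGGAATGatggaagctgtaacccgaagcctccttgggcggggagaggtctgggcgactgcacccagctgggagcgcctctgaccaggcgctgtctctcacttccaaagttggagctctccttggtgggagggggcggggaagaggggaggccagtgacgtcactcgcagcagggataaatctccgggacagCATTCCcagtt
The match lay 146 to 141 bases before the start in both Acta2 and Flna, on opposite strands. Pdlim3 held the letters on each strand, with the nearer match at 11 to 6 bases before its start. These matches describe letters in a window and do not show that a factor was bound. The windows of Flna and Srf lie wholly, and that of Acta2 mostly, within the gene coordinates given below.

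The 8 libraries held 33145056 to 39257648 counts in genes, and the member with the fewest, Ldb3, had at least 123 counts in every library, so counting error was small beside the spread between libraries. Levels are given as CPM, a gene's counts scaled to a fixed total per library, after TMM scaling. Gene coordinates follow the count tables, on GRCm38.p5. Insr measured 112, 114, 130.0 and 148 CPM in DKO ovaries 1 to 4, against 162, 158, 140.0 and 160.2 CPM in controls 1 to 4, with a log2 fold change of -0.30 ± 0.11 (SE; edgeR's quasi-likelihood test, adjusted p = 0.226). Its groups overlapped, DKO 4 lying above control 3. Igf1r averaged 214 ± 22.4 CPM in DKO ovaries and 236 ± 28.6 CPM in controls (SD, n = 4 each). Counts of both genes were summed over all exons, so a deleted part was not measured on its own. DKO 2 and control 1 stood apart by markers of the oviduct, the tube next to the ovary. The summed level of 10 oviduct markers was 842 CPM in DKO 2 and 1313 CPM in control 1, against 17.4 to 21.9 CPM in the other DKO ovaries and 15.0 to 47.4 CPM in the other controls. The oviduct wall has its own smooth muscle, so results are also given without both libraries. Markers of skeletal muscle were low, with 10 genes summing to 10.1 to 14.1 CPM in DKO ovaries and 12.4 to 24.3 CPM in controls, most of it from Actn3. In whole-organ RNA, fewer cells of a type and less RNA per cell cannot be told apart.

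Mean levels of most contractile genes were lower in DKO ovaries, but no member passed the test across all genes. Of the 29 members, 28 had a log2 fold change below 0, and their median was -0.40, beside a median of -0.02 over all 16870 genes tested, of which 53.1% were below 0. All 29 passed the filter on low counts. The quasi-likelihood test of edgeR with Benjamini-Hochberg adjustment called 0 of 29 members at an adjusted p of 0.05, where it called 1.26% of all genes, and 11 of 29 members had an unadjusted p under 0.05, as did 15.4% of all genes. The smallest adjusted p-values were those of Pdlim3 (0.108) and Flna (0.113). Flna was the only member whose groups did not overlap, every DKO library lying below every control, as was the case for 3.54% of all genes. DESeq2 called Flna and Pdlim3, 2 of 29 members, where it called 7.19% of the genes it tested. limma-voom with sample quality weights called the same 2 genes, where it called 9.79% of all genes. The total of 212 called genes itself depended on single libraries. It was 2 without control 2, 9 without DKO 3, 27 without control 4, 66 without DKO 2, 78 without DKO 1, 113 without DKO 4 and 506 without control 3. Whether each library is a separate mouse is not stated beyond the word littermate, so p-values measure the spread between these samples.

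**Figure D1:**
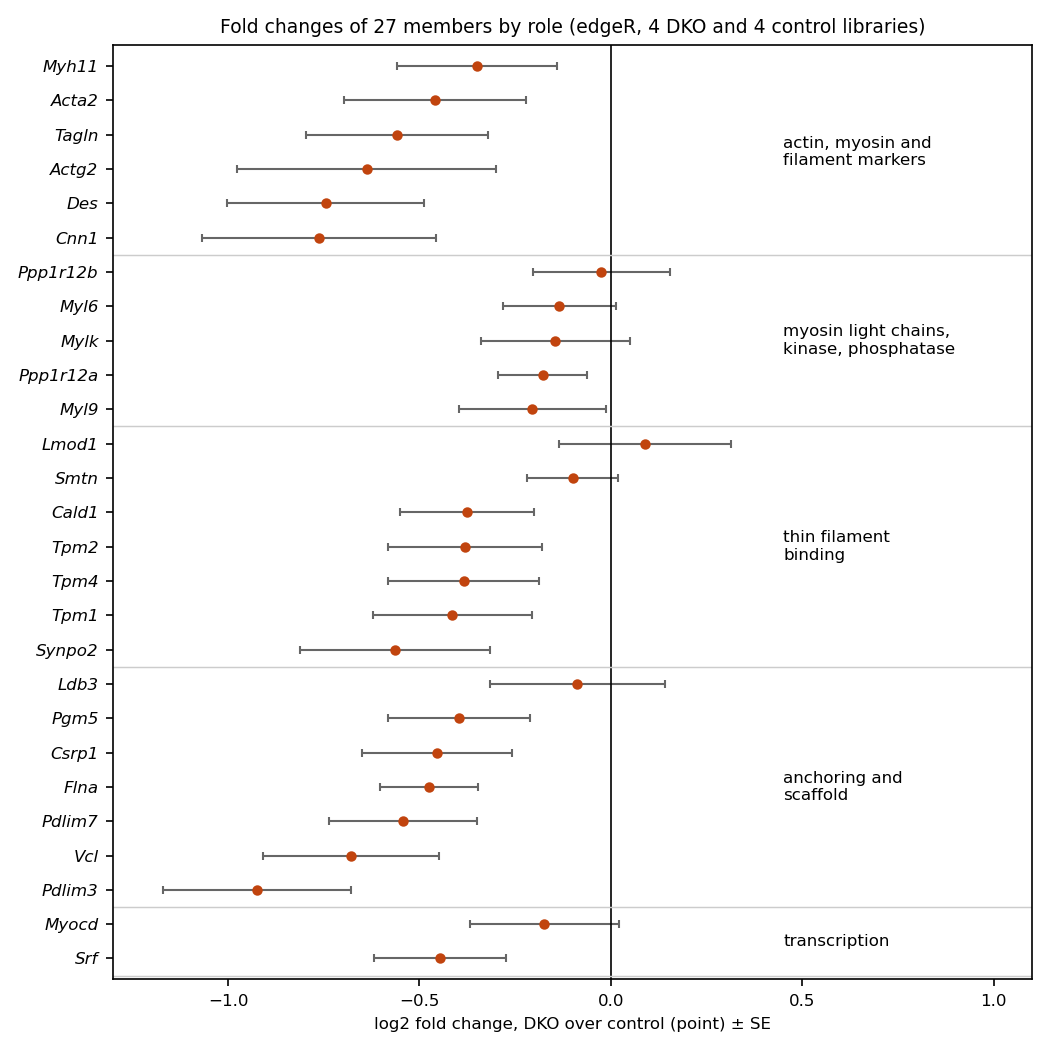
Log2 fold change, DKO over control, of 27 members (points) with its SE (bars), grouped by role; the vertical line marks 0. All points but Lmod1 lie left of the line, and filament and anchoring genes reach furthest left, to -0.92 for Pdlim3.

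The filament genes define differentiated smooth muscle, and all 6 had lower means in DKO ovaries, with a median log2 fold change of -0.60 and none past the test. Acta2 (gene ID 11475, chr19:34240336-34255585), which encodes the actin of vascular smooth muscle, measured 983, 597, 694 and 1064 CPM in DKO ovaries 1 to 4, against 748, 1102, 1466 and 1271 CPM in controls 1 to 4. DKO 2 and DKO 3 were the lowest libraries, while DKO 1 and DKO 4 lay within the range of the controls. The log2 fold change of Acta2 was -0.46 ± 0.24 (SE; edgeR, adjusted p = 0.402).

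Tagln (gene ID 21345, chr9:45929628-45936058), encoding transgelin, an actin-binding protein used as an early smooth muscle marker, measured 702, 475, 479 and 675 CPM in DKO ovaries 1 to 4, against 552, 771, 1219 and 893 CPM in controls 1 to 4. Its highest library was control 3, and the groups overlapped because control 1 lay below DKO 1 and DKO 4. The log2 fold change of Tagln was -0.56 ± 0.24 (SE; edgeR, adjusted p = 0.292), and -0.34 without control 3. Actg2 (gene ID 11468, chr6:83512909-83536251) encodes the actin typical of gut and other visceral smooth muscle and measured 170.5, 108, 119 and 212 CPM in DKO ovaries 1 to 4, against 108, 233, 336 and 270.0 CPM in controls 1 to 4. Control 1 was as low as DKO 2, and the other 3 controls stood above every DKO library, giving a log2 fold change of -0.64 ± 0.34 (SE; edgeR, adjusted p = 0.419), or -0.42 without control 3. Acta2 and Actg2 are closely related in sequence, and the recorded counting set no option for reads that match more than 1 place, so their split is uncertain.

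Myh11 (gene ID 17880, chr16:14194527-14291408), the heavy chain of smooth muscle myosin and the most specific marker of the group, measured 494, 244, 320.4 and 465 CPM in DKO ovaries 1 to 4, against 437, 502, 456 and 546 CPM in controls 1 to 4. DKO 2 and DKO 3 were again lowest, DKO 1 and DKO 4 were close to the controls, and the 4 controls were close to each other. Its log2 fold change was -0.35 ± 0.21 (SE; edgeR, adjusted p = 0.478), and -0.18 without DKO 2. Cnn1 (gene ID 12797, chr9:22099221-22109221), which encodes calponin, a brake on actin-activated myosin, measured 83.5, 56.1, 66.7 and 108 CPM in DKO ovaries 1 to 4, against 71.1, 115, 190.2 and 156 CPM in controls 1 to 4. Des (gene ID 13346, chr1:75360292-75368579), encoding desmin, the intermediate filament of muscle, measured 74.7, 57.0, 56.3 and 87.0 CPM in DKO ovaries 1 to 4, against 66.0, 102, 154 and 139 CPM in controls 1 to 4. In both genes controls 2 to 4 stood above every DKO library, and control 1 lay within the range of the DKO libraries. The log2 fold change was -0.76 ± 0.31 for Cnn1 and -0.75 ± 0.26 for Des (SE; edgeR, adjusted p = 0.273 and 0.198). Without control 1, edgeR called Des (adjusted p = 0.0491) and Pdlim3 (0.0375), 2 of 29 members, where it called 1.51% of all genes. Over the 21 alternatives tried, the adjusted p of Des ran from 0.0491 to 0.600.

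**Figure D2:**
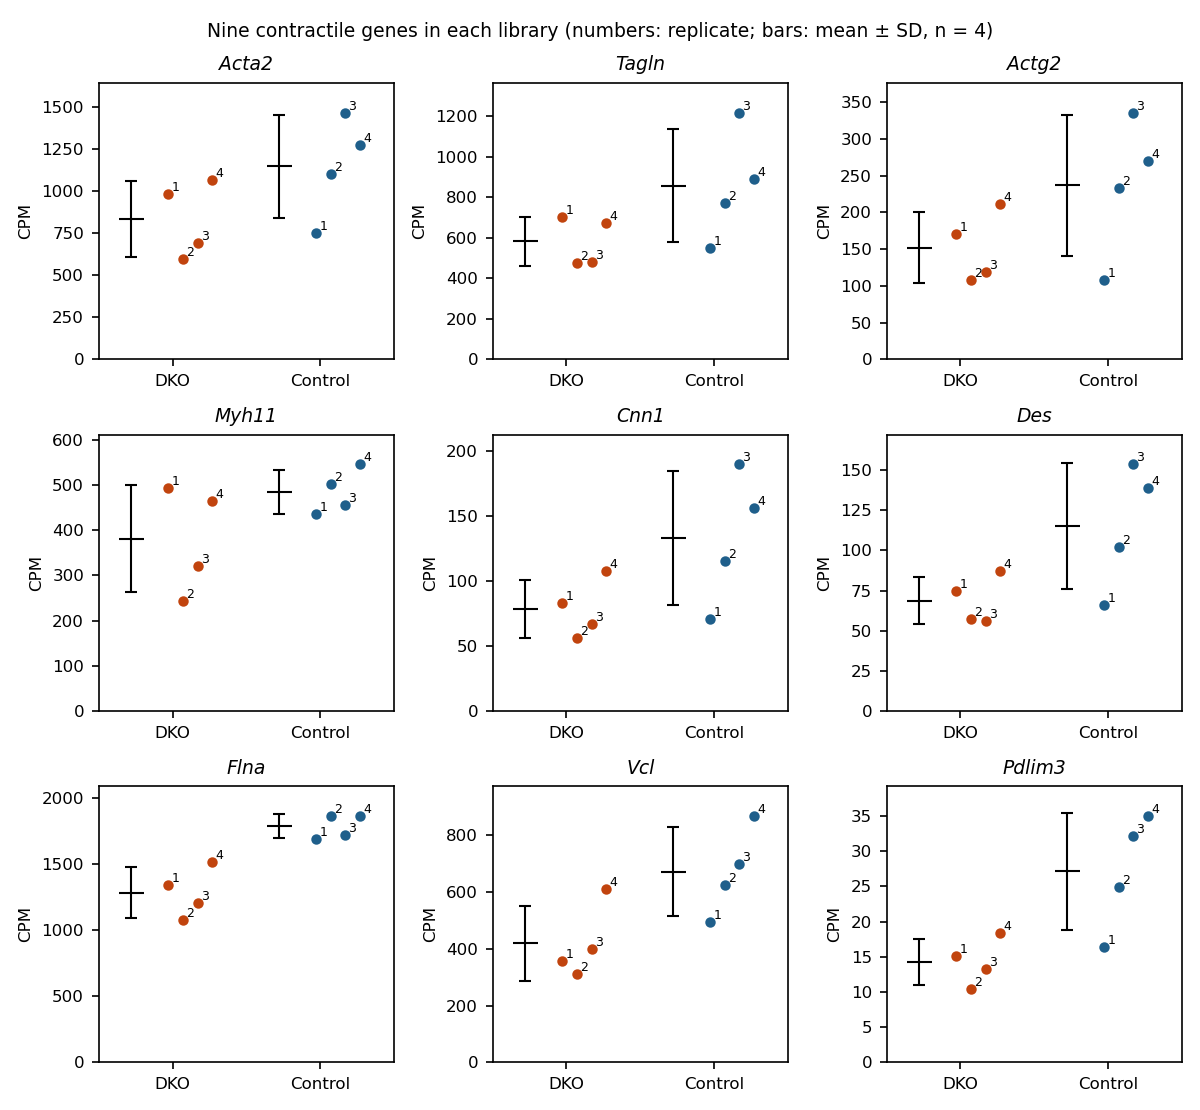
TMM-scaled CPM of 9 contractile genes in each library (points, labelled with the replicate number), DKO left and control right, with the mean ± SD (n = 4 each) beside the points; each panel has its own axis from 0. Libraries DKO 2, DKO 3 and control 1 sit at the bottom of most panels, and the groups separate fully in the Flna panel.

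Of the role groups, the 7 genes of the myosin switch had the median log2 fold change nearest 0, at -0.15, and none passed the test. Mylk (gene ID 107589, chr16:34745199-35002436), the kinase that starts contraction, measured 554, 334, 370.5 and 519 CPM in DKO ovaries 1 to 4, against 454, 489, 399.9 and 624 CPM in controls 1 to 4. The groups overlapped, with DKO 1 and DKO 4 each above 3 of the 4 controls. DKO 2 and DKO 3 were below every control, as for Acta2 and Myh11. The log2 fold change was -0.15 ± 0.19 (SE; edgeR, adjusted p = 0.786). With 1 library left out it ran from -0.27 without DKO 1 to -0.01 without control 4. Myl9, the regulatory light chain that the kinase phosphorylates, averaged 210.5 ± 56.5 CPM in DKO ovaries and 243 ± 35.9 CPM in controls, and the essential light chain gene Myl6 averaged 591 ± 49.8 CPM in DKO ovaries and 649 ± 131 CPM in controls (SD, n = 4 each). Their log2 fold changes were -0.21 ± 0.19 and -0.13 ± 0.15. The targeting subunits of myosin phosphatase were similar in mean, with 165 ± 12.5 CPM in DKO ovaries and 187 ± 24.2 CPM in controls for Ppp1r12a and 125 ± 29.2 CPM in DKO ovaries and 127 ± 23.9 CPM in controls for Ppp1r12b (SD, n = 4 each).

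Among the 7 thin filament proteins, 6 had a log2 fold change below 0, the median was -0.38, and none passed the test. Lmod1 (gene ID 93689, chr1:135324813-135368065), encoding leiomodin, which nucleates actin filaments in smooth muscle, was the exception and measured 58.7, 33.5, 37.5 and 52.9 CPM in DKO ovaries 1 to 4, against 32.4, 43.4, 37.0 and 58.9 CPM in controls 1 to 4. Its highest libraries were control 4 and DKO 1 and its lowest control 1 and DKO 2, so that neither group was set apart. The log2 fold change of Lmod1 was 0.09 ± 0.22 (SE; edgeR, adjusted p = 0.893).

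Smtn (gene ID 29856, chr11:3517522-3539654), encoding smoothelin, a marker of contractile cells, measured 162, 140.3, 132 and 163 CPM in DKO ovaries 1 to 4, against 141, 169, 147 and 182 CPM in controls 1 to 4. It was the steadiest member, its highest library 1.38 times its lowest, with a log2 fold change of -0.10 ± 0.12 (SE; edgeR, adjusted p = 0.757), or -0.03 without DKO 3 or control 4 and -0.06 without DKO 2. Synpo2 (gene ID 118449, chr3:123076519-123236169), encoding an actin-bundling protein of the Z-disc and dense body, measured 14.6, 9.51, 12.1 and 15.3 CPM in DKO ovaries 1 to 4, against 14.9, 20.5, 13.0 and 27.8 CPM in controls 1 to 4. DKO 2 was lowest, control 4 was nearly 3 times as high, and the log2 fold change was -0.56 ± 0.25 (SE; edgeR, adjusted p = 0.312), or -0.33 without control 4. The tropomyosins, which lie along the actin filament and gate the access of myosin, differed by like amounts, with log2 fold changes of -0.41 ± 0.21 for Tpm1, -0.38 ± 0.20 for Tpm2 and -0.38 ± 0.20 for Tpm4. Caldesmon (Cald1), which inhibits myosin on the thin filament, averaged 581 ± 102 CPM in DKO ovaries and 755 ± 162 CPM in controls (SD, n = 4 each), a log2 fold change of -0.38 ± 0.17.

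The anchoring and scaffold proteins join actin to adhesion sites, dense bodies and Z-discs, and their median log2 fold change was -0.48 over 7 genes, with none past the test. Pdlim3 (gene ID 53318, chr8:45885452-45919548), encoding a PDZ and LIM domain protein that binds alpha-actinin, measured 15.1, 10.5, 13.3 and 18.3 CPM in DKO ovaries 1 to 4, against 16.4, 24.9, 32.2 and 35.0 CPM in controls 1 to 4. Controls 2 to 4 stood above every DKO library, and control 1 lay between DKO 1 and DKO 4. Its log2 fold change of -0.92 ± 0.25 was the lowest of all members (SE; edgeR, adjusted p = 0.108). DESeq2 gave Pdlim3 an adjusted p of 0.00945, and over the 21 alternatives the adjusted p ran up to 0.434, with a log2 fold change between -1.09 and -0.75.

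Flna (gene ID 192176, chrX:74223461-74249852) encodes filamin A, which crosslinks actin and ties it to integrins in most cell types, and measured 1344, 1075, 1207 and 1522 CPM in DKO ovaries 1 to 4, against 1696, 1866, 1723 and 1869.5 CPM in controls 1 to 4. Each control was above each DKO library, the gap lying between DKO 4 and control 1. Flna averaged 1287 ± 191 CPM in DKO ovaries and 1789 ± 92.2 CPM in controls (SD, n = 4 each), a log2 fold change of -0.48 ± 0.13 (SE; edgeR, adjusted p = 0.113). Its adjusted p was 0.00614 with DESeq2 and 0.0146 with quality weights, and it ran up to 0.493 over the 21 alternatives. Vinculin (Vcl, gene ID 22330, chr14:20929378-21033676), which couples actin to integrins and cadherins, was singled out after its values were seen and measured 356, 313, 401 and 609.6 CPM in DKO ovaries 1 to 4, against 494, 626, 700.0 and 869.5 CPM in controls 1 to 4. DKO 1 to 3 were below every control and DKO 4 was not, with a log2 fold change of -0.68 ± 0.23 (SE; edgeR, adjusted p = 0.187).

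Pdlim7 (gene ID 67399, chr13:55497487-55513473), encoding another PDZ and LIM protein of actin fibres, measured 73.3, 71.9, 85.2 and 99.7 CPM in DKO ovaries 1 to 4, against 79.3, 116, 157 and 128 CPM in controls 1 to 4. Control 1 again lay among the DKO libraries, and the log2 fold change was -0.54 ± 0.19 (SE; edgeR, adjusted p = 0.207). Csrp1, a LIM protein that bundles actin, averaged 324 ± 53.2 CPM in DKO ovaries and 444 ± 117 CPM in controls, and Pgm5, a non-enzymatic relative of phosphoglucomutase found at adherens junctions, averaged 35.0 ± 5.88 CPM in DKO ovaries and 46.1 ± 11.1 CPM in controls (SD, n = 4 each). Their log2 fold changes were -0.45 ± 0.20 and -0.40 ± 0.18. Ldb3, a Z-disc protein of striated muscle, was the rarest member, at 4.23 ± 0.878 CPM in DKO ovaries and 4.50 ± 0.791 CPM in controls (SD, n = 4 each), with a log2 fold change of -0.09 ± 0.23.

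The regulators differed from each other in size of difference, though this was not tested. Srf (gene ID 20807, chr17:46546838-46557214), whose own promoter carries the pair of CArG boxes shown above, measured 81.2, 74.0, 103 and 105 CPM in DKO ovaries 1 to 4, against 91.3, 119, 130.5 and 154 CPM in controls 1 to 4. Control 1 lay below DKO 3 and DKO 4, and the other controls stood above every DKO library. Its log2 fold change was -0.45 ± 0.17 (SE; edgeR, adjusted p = 0.242). Myocd (gene ID 214384, chr11:65173608-65269989), the smooth muscle partner of Srf, measured 48.1, 29.3, 26.8 and 33.5 CPM in DKO ovaries 1 to 4, against 34.3, 42.6, 32.2 and 46.5 CPM in controls 1 to 4. DKO 1 was the highest library of all, the other DKO libraries were below controls 2 and 4, and the log2 fold change was -0.17 ± 0.19 (SE; edgeR, adjusted p = 0.734). With 1 library left out it ran from -0.38 without DKO 1 to -0.06 without DKO 3.

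The libraries within each group differed. DKO 2 was the lowest of the 8 libraries for 18 of 29 members and DKO 3 for 8, and they were among the 3 lowest for 26 and 25 members. Control 1 was among the 3 lowest for 16. Control 4 was highest for 14 members and control 3 for 12. Setting each member on a log2 scale relative to its mean over the 8 libraries, the median over members was -0.13, -0.52, -0.38 and 0.03 in DKO 1 to 4, against -0.20, 0.13, 0.28 and 0.37 in controls 1 to 4. DKO 1 and DKO 4 were thus close to the middle of all libraries, and control 1 was below them both. The 18 members assigned mainly to muscle, among them Ldb3 of striated muscle, had a median log2 fold change of -0.39. The 11 assigned to most cell types had one of -0.41.

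**Figure D3:**
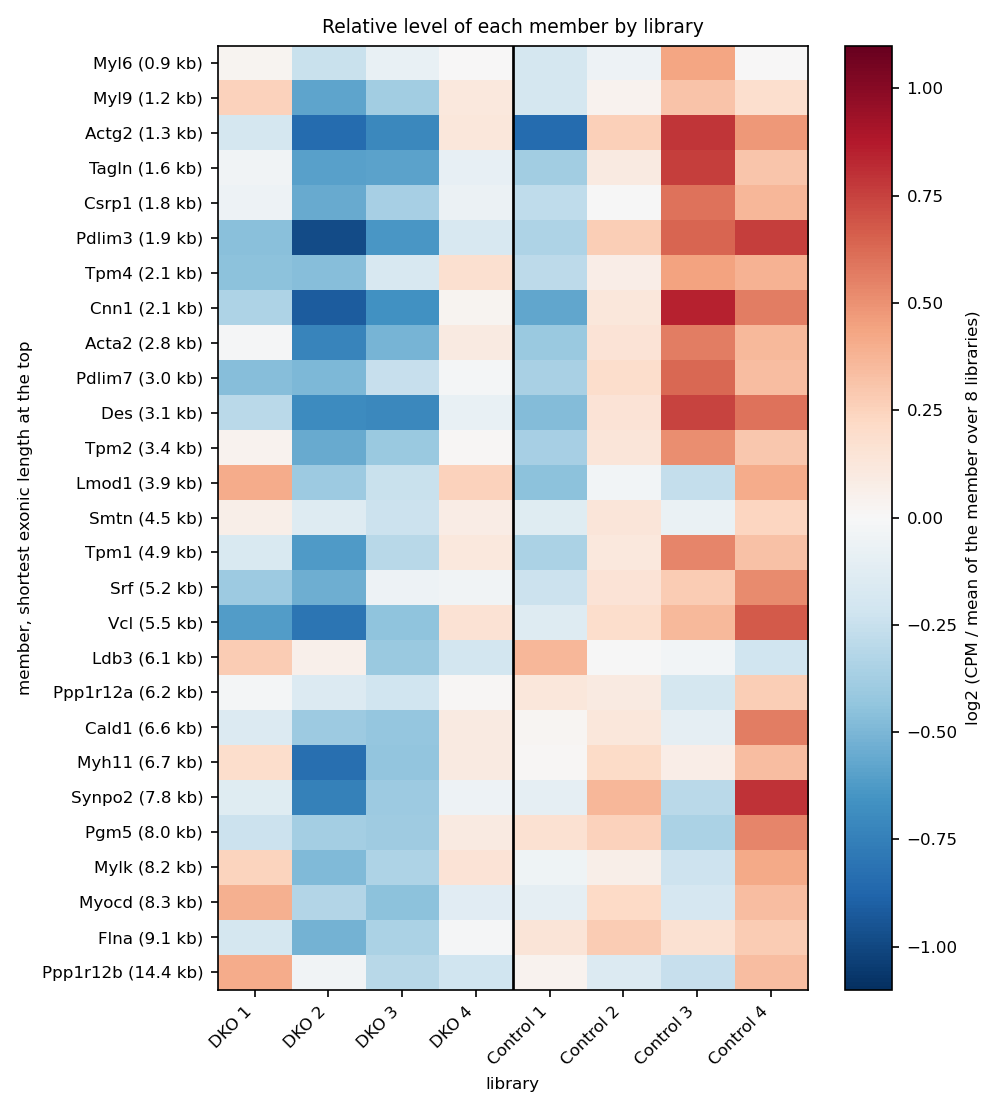
Log2 level of 27 members in each library relative to each member's mean over the 8 libraries (colour scale), DKO libraries left of the black line and controls right, with members ordered by exonic length, shortest at the top. DKO 2 and DKO 3 are blue for most members, control 4 is red for most, and control 3 is red for most short members and paler or blue for most long ones.

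Both libraries with high oviduct markers were among the lower libraries for contractile genes in their group. Control 1 was the lowest control for 19 of 29 members and DKO 2 the lowest DKO library for 19. Without these libraries the median log2 fold change of the members was -0.41, and edgeR called 0 of 29. Mural cells, the pericytes and muscle cells of vessel walls, were gauged by 9 markers outside the 29 members. Their summed level was 418 to 703 CPM in DKO ovaries and 394 to 581 CPM in controls, 6 of 9 had a log2 fold change above 0, and edgeR called 0 of 9. The stromal markers, 7 genes, summed to 3723 to 5062 CPM in DKO ovaries and 3667 to 5270 CPM in controls. Theca markers, 5 genes, summed to 746 to 1038 CPM in DKO ovaries and 345 to 627 CPM in controls. Of these 5, 3 had a log2 fold change below 0, the median was -0.0003 and 0 were called. The higher sum was thus not shared by most of them. Lhcgr had the smallest adjusted p of the list (0.0893, edgeR). All 6 oocyte markers had a log2 fold change below 0, none was called, and their median was -0.37. They summed to 106, 126, 355 and 220 CPM in DKO ovaries 1 to 4, against 96.8, 363, 283 and 314 CPM in controls 1 to 4, so that DKO 1, DKO 2 and control 1 were low. The part of cell makeup in the lower contractile levels was not tested.

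The numbers in the sample titles fall into a low run, held by DKO 1, DKO 2 and control 1, and a high run, held by the other 5 libraries; what the numbers stand for is not stated. In the high run the median log2 fold change of the members was -0.35, 28 of 29 were below 0, and edgeR called 0. In the low run, where control 1 is the only control and no test was run, the mean of DKO 1 and DKO 2 relative to control 1 had a median of -0.03 on the log2 scale, with 19 of 29 members below 0. The 6 filament genes had a median of -0.73 in the high run and 0.04 in the low run, where 3 of 6 were below 0. The median filament level was thus lower in the high run and not in the low one, a difference that was not tested. In the low run the 6 values ran from -0.24 for Myh11 to 0.36 for Actg2. DKO 2 and control 1, the libraries with high oviduct markers, are both in the low run. DKO 1 is in that run too, with oviduct markers at 19.9 CPM. Among the controls, run and oviduct tissue cannot be told apart, since control 1 is the only control of the low run. The part of either was not tested. Flna was lower in both runs, at -0.40 in the high run and -0.49 in the low run, as was Pdlim3, at -0.94 and -0.36.

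Member levels also moved with transcript length in control 3. Relative to the mean of the other controls, control 3 was higher for 12 of the 13 members with an exonic length under 4000 bases, with a median log2 ratio of 0.52, and for 3 of the 16 longer members, with a median of -0.35. Over all genes averaging at least 5 CPM, the median log2 ratio was 0.19 for 6269 genes under 4000 bases and -0.22 for 5313 longer genes. Control 1 relative to the other controls went the other way, from -0.185 under 1000 bases to 0.167 from 8000 bases on. Between the same bins, the median log2 fold change of DKO over control fell from 0.096 to -0.115. Members under that length include Acta2, Tagln, Actg2, Cnn1, Des and Pdlim3, and the longer ones include Myh11, Mylk, Flna and Synpo2. Without control 3 the median log2 fold change was -0.32 for the short members, -0.33 for the long ones and -0.40 for the filament genes, in place of -0.46, -0.36 and -0.60 with all libraries, and edgeR called 0 of 29 members. With a correction for length in every library, an alternative added after seeing the data, the medians were -0.51 for short members, -0.31 for long members, -0.65 for the filament genes and -0.40 for all 29, again with 0 called.

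**Figure D4:**
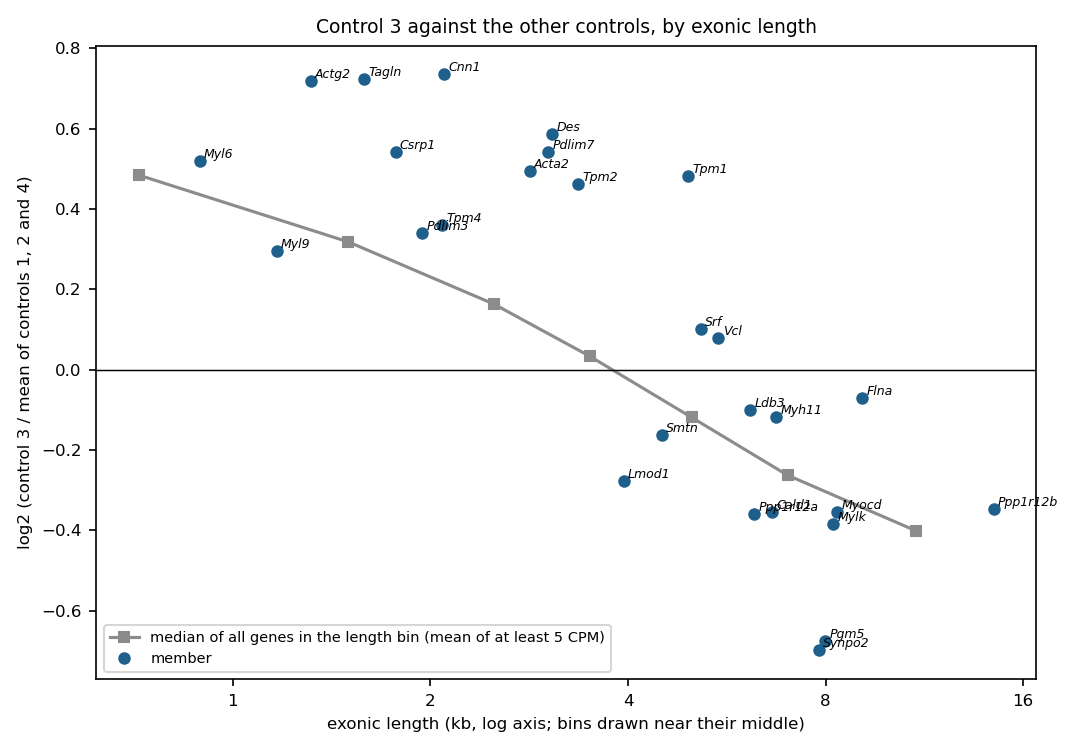
Log2 ratio of control 3 to the mean of controls 1, 2 and 4 against exonic length (kb, log axis) for 27 members (blue points), with the median over all genes averaging at least 5 CPM in each length bin (grey squares and line). Short members lie mostly above 0 and long ones below. The line falls from 0.48 in genes under 1000 bases to -0.40 in genes over 8000 bases, and members need not lie on it. In the bin from 3000 to 4000 bases, where the line is at 0.033, Des (0.59), Pdlim7 (0.54) and Tpm2 (0.46) lie above it and Lmod1 (-0.28) below.

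Levels can be compared between members only per length of exon, and the order on that scale was nearly the same in both groups. Myl6 was highest, with 664 ± 55.9 CPM per kb in DKO ovaries and 729 ± 147 in controls (SD, n = 4 each). It was followed in both groups by Tpm4, Tagln, Acta2 and Csrp1, at 433, 368, 294 and 183 CPM per kb in DKO ovaries and 565, 541, 405 and 251 in controls. Of the neighbours among these 5, Tpm4 and Tagln, and Tagln and Acta2, differed in both groups by less than the larger of their SDs, so their order is not resolved. Flna, the most abundant member by CPM, held rank 8 per kb in each group, at 141 ± 21.0 CPM per kb in DKO ovaries and 197 ± 10.1 in controls. Myh11 had 56.6 ± 17.6 CPM per kb in DKO ovaries and 72.2 ± 7.30 in controls over an exonic length of 6722 bases, below both smooth muscle actins. At the low end, Myocd had 4.13 ± 1.15 CPM per kb in DKO ovaries and 4.66 ± 0.812 in controls, Synpo2 had 1.65 ± 0.338 CPM per kb in DKO ovaries and 2.44 ± 0.848 in controls, and Ldb3 was lowest, with 0.689 ± 0.143 CPM per kb in DKO ovaries and 0.732 ± 0.129 in controls. No member moved by more than 2 places in rank between the groups.

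**Figure D5:**
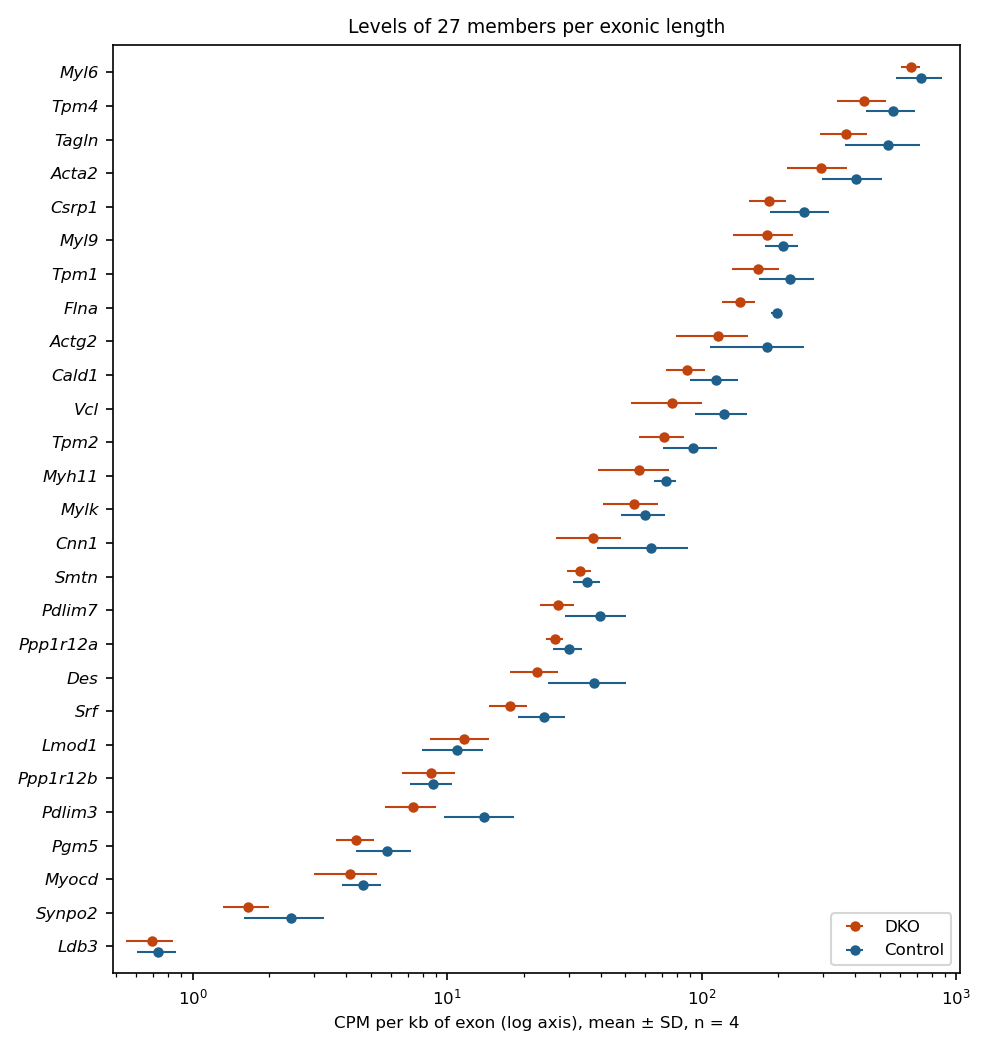
CPM per kb of exon (log axis) of 27 members in DKO ovaries (orange) and controls (blue), points with bars for the mean ± SD (n = 4 each), ordered by the DKO mean. The order is nearly shared by the groups, from Myl6, at 664 in DKO ovaries and 729 in controls, to Ldb3, at 0.689 in DKO ovaries and 0.732 in controls.

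Other genes of the contractile pathway were taken as lists of the same roles. Of 18 tested genes for other actins, myosins and filament proteins, 15 had a log2 fold change below 0, with a median of -0.26, and 1 was called lower, beside 0.498% of all genes. That gene was Tmod1, which encodes tropomodulin 1, the cap of the slow-growing end of actin filaments. It measured 1.88, 4.00, 3.06 and 4.05 CPM in DKO ovaries 1 to 4, against 8.38, 11.9, 8.11 and 9.15 CPM in controls 1 to 4, every DKO library below every control. Tmod1 fell by 1.53 ± 0.27 on the log2 scale (SE; edgeR, adjusted p = 0.0337). The call was lost without DKO 2 (adjusted p = 0.0645), DKO 3 (0.111), control 2 (0.139) or control 4 (0.0889), and over the 21 alternatives the adjusted p ran from 2.2e-06 to 0.139 with 14 calls.

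Of 30 other adhesion and scaffold genes, 26 had a log2 fold change below 0, the median was -0.22 and 0 were called. The smallest adjusted p there was that of Cav1, which encodes caveolin 1, the coat protein of membrane pits abundant in smooth muscle. It had a log2 fold change of -0.56 ± 0.15 (SE; edgeR, adjusted p = 0.101) and no overlap between groups. Relatives of Pdlim3 in this list, looked up after their values were seen, went both ways. Below 0 were Pdlim1 (log2 fold change -0.34 ± 0.10, SE) and Pdlim5 (-0.49 ± 0.23). Above 0 were Pdlim2 (1.03 ± 0.28) and Pdlim4 (0.90 ± 0.25). With DESeq2 their adjusted p was 0.0406, 0.249, 0.0061 and 0.0104, in that order. Of 20 tested factors and targets linked to Srf, its MRTF partners and the TEAD family, 14 were below 0, with a median of -0.27 and 0 called. Tead1, a factor that binds the MCAT element shown above, had a log2 fold change of -0.84 ± 0.18 (SE; edgeR, adjusted p = 0.0576), every DKO library again below every control. Regulators of small GTPases and of myosin phosphatase numbered 20, of which 15 were below 0, with a median of -0.11 and 0 called. Ppp1r14a, a phosphatase inhibitor of smooth muscle, had a log2 fold change above 0, at 1.20 ± 0.28 (SE; edgeR, adjusted p = 0.0830). Genes of calcium entry, release and sensing, 26 in number, were split evenly, 13 below and 13 above 0, with 0 called. The smallest adjusted p among them was that of Calm3, a calmodulin gene, with a log2 fold change of 0.48 ± 0.10 (SE; edgeR, adjusted p = 0.0552).

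Receptors through which hormones and transmitters start contraction went the other way at 3 genes. Of 16 tested, 7 had a log2 fold change below 0 and 9 above, with a median of 0.17. The 3 called higher, beside 0.759% of all genes, were Adra1d, Oxtr and Ptgfr, the receptors for noradrenaline, oxytocin and prostaglandin F. Adra1d averaged 19.8 ± 3.68 CPM in DKO ovaries and 4.92 ± 1.22 CPM in controls (SD, n = 4 each), a log2 fold change of 2.01 ± 0.21 (SE; edgeR, adjusted p = 0.00699). Oxtr and Ptgfr had log2 fold changes of 1.82 ± 0.25 and 2.36 ± 0.32 (SE; edgeR, adjusted p = 0.0162 and 0.0173). All 3 lost their call without control 2 (adjusted p = 0.0578, 0.0815 and 0.0685), and Oxtr and Ptgfr also without DKO 3 (0.0579 for each) or control 4 (0.0699 and 0.0800). Without both DKO 1 and DKO 2, Ptgfr had an adjusted p of 0.0516. Over the 21 alternatives Adra1d was called in 20, Oxtr in 18 and Ptgfr in 16, with largest adjusted p-values of 0.0578, 0.0815 and 0.0800. All 3 receptors are also expressed outside smooth muscle, and the cells that carried these counts cannot be told from whole ovaries.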

How the data were processed

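Poly(A)-selected stranded libraries of whole ovary were sequenced, per the labels' protocols. The authors deposited raw counts per gene for each library, made with featureCounts of Subread 1.5.2 over exons by gene ID with strand setting 2 on the RefSeq annotation of GRCm38.p5, per the file headers. Names given without a role in the submitters' processing notes were the aligner STAR 2.4.2a, the trimmer Trimmomatic (0.33, 0.36), bcl2fastq 2.17.1.14 and edgeR 3.12.0, beside the builds p3 and p5 of GRCm38. No option for reads matching several places was recorded, so counts of near-identical relatives (actins, tropomyosins, Myl6 and Myl9 with theirs) are uncertain. RefSeq symbols (GRCm38.p6, used for names and promoters only) matched 40290 IDs (96.9%).

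Groups and replicate numbers came from the sample descriptions. The 8 libraries entered 1 fit over all genes in edgeR 4.0.16 (R 4.3.3): filterByExpr (16870 genes kept), TMM (factors 0.943 to 1.06), and a robust two-sided quasi-likelihood test with no covariate, Benjamini-Hochberg adjustment over all genes and a threshold of 0.05. The biological coefficient of variation was 0.281. No replicates agreed within sampling noise (reduced chi-square of at least 25.05). CPM are TMM-scaled, and tables were made in Python 3.11.15. The fit was tested on simulated data. Values in every library are given for filament genes, Mylk, Lmod1, Synpo2, Smtn, Myocd, Srf, Pdlim3, Pdlim7, Flna and any member without overlap. In each other list of the pathway, called genes and that with the smallest adjusted p are named. Members and lists were chosen with earlier results of these data known, so no list statistic was tested. Single values of 2 members are not reported here; they stay in the counts and medians. Alternatives were other scalings and filters, DESeq2 1.42.0, limma-voom (limma 3.58.1) with and without quality weights, replicate and title-number blocks, a length correction and leaving out libraries.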

Additional observations from a re-analysis of the deposited data

Results flagged for a closer look

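Among the 54 groups of 4 libraries formed by 27 members, 0 had a library standing apart by Dixon's criterion, where chance gives about 1 in 20. Ovgp1, which encodes the secreted glycoprotein of the oviduct and is no member, stood apart in both groups. It measured 724 CPM in DKO 2, against 2.51 to 2.90 CPM in the other DKO ovaries, and 1147 CPM in control 1, against 4.04 to 23.8 CPM in the other controls.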

How the results depend on the processing

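Over 21 alternatives the median log2 fold change of the members ran from -0.52 to -0.30, with 26 to 29 members below 0, and no member was called under 17 of them. DESeq2 called 1107 genes and 2 members, and limma-voom with quality weights 1651 genes and 2 members. The replicate number as a block gave 743 genes and 1 member, Vcl, and an adjusted p of 0.0534 for Ptgfr (edgeR). Deviations of same-numbered samples from their group means correlated at 0.16, -0.36, 0.31 and 0.47. Differently numbered samples were not compared, so whether the numbers pair the samples was not settled. A block for the run of title numbers gave 526 genes and 0 members, leaving out control 1 and DKO 2 gave 97, and leaving out DKO 1 and DKO 2 gave 64. Leaving out 1 library at a time gave 2 to 506 genes and 0 to 2 members. The causes were not tested. Of 27 single members, 23 kept the sign of their fold change throughout, and 4 did not. Lmod1 was -0.011 with quality weights and -0.020 in the high run of title numbers. Ppp1r12b and Ldb3 were 0.0090 and 0.018 without control 1 and DKO 2, and Ppp1r12b was 0.11 with the length correction. With 1 library left out, Lmod1 ran from -0.056 to 0.28, Ppp1r12b from -0.20 to 0.10, Ldb3 from -0.21 to 0.053 and Myl6 from -0.20 to 0.014. Values of other members that moved by over 1.5 times without 1 library included -0.25 for Tpm2 and -0.30 for Csrp1 without control 3, -0.22 for Cald1, -0.26 for Pgm5 and -0.11 for Ppp1r12a without control 4, and -0.35 to -0.07 for Myl9, lowest without DKO 1 and highest without DKO 2. Ldb3 had no value under the filter of 5 CPM. Depth did not limit these results, since every member had at least 123 counts in each library.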

Other observations

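Vessel linings were measured beside the contractile genes. All 6 endothelial markers had a log2 fold change above 0, with a median of 0.38 and none called, and Tie1, a receptor kinase of endothelium, had 0.39 ± 0.12 (SE; edgeR's quasi-likelihood test, adjusted p = 0.157). Their summed level was 442 to 640 CPM in DKO ovaries and 427 to 515 CPM in controls. Of the skeletal muscle list, whose other genes were at most 3.74 CPM in any library, Actn3 was the exception, at 5.41, 5.12, 7.31 and 8.04 CPM in DKO ovaries 1 to 4, against 8.19, 15.5, 17.7 and 16.8 CPM in controls 1 to 4, every DKO library below every control (log2 fold change -1.17 ± 0.26, SE; edgeR, adjusted p = 0.0642). Of the 9 mural markers, 6 had a log2 fold change above 0, with a median of 0.32 and 0 called. Cox4i2 had the smallest adjusted p among them (0.0872, edgeR). Kcnj8, a mural marker chosen after its values were seen, encodes a potassium channel subunit of pericytes. It measured 9.42, 12.8, 38.9 and 39.3 CPM in DKO ovaries 1 to 4, against 24.7, 40.6, 39.5 and 42.2 CPM in controls 1 to 4. The lowest libraries were DKO 1, DKO 2 and control 1, which make up the low run of title numbers.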
